A study of Mus musculus with 2 samples.

Results

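The Fc gamma receptor genes are described here: Fcgr1, Fcgr3 and Fcgr4, which encode activating receptors for the constant part of immunoglobulin G, Fcgr2b, which encodes the inhibitory receptor, and Fcer1g, which encodes the signalling chain that the activating receptors share. They were taken by symbol, as 5 of the 27998 genes in the count tables, and all 5 had counts in both libraries. The data were 2 libraries of droplet single-cell RNA sequencing (10x Genomics 3' v2 chemistry) of F4/80+CD11b+ cells sorted from the alveolar bone, the bone that holds the teeth, of male C57/B6J mice aged 8 weeks. The control library came from mice without force. The other library, labelled Case and called OTM (orthodontic tooth movement) here, came from mice whose left first molar had been pulled by a nickel-titanium coil spring for 7 days. No allele or agent set the groups apart, and both shared the sort gate. The 20 mice of the sequencing experiment were divided over the groups, and the number pooled in each library is not given in the sources used here. With 1 library per group, force, animals and library preparation cannot be told apart, no test between groups was possible, and all intervals below are 95% intervals that cover counting error only.

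Fc gamma receptors let myeloid cells bind antibody that has coated a particle or formed an immune complex. The activating receptors carry no signalling motif of their own in the mouse and depend on the Fc receptor gamma chain encoded by Fcer1g, whose immunoreceptor tyrosine-based activation motif (ITAM) is phosphorylated by Src family kinases and then recruits the kinase Syk. Fcgr2b carries an immunoreceptor tyrosine-based inhibitory motif (ITIM) in its own tail, which recruits the phosphatase encoded by Inpp5d and dampens the signal. The balance of activating and inhibitory receptors on a cell therefore sets how it answers an immune complex. Fcgr1 is the high-affinity receptor, Fcgr3 is found on most mouse myeloid cells, and Fcgr4 is known from neutrophils and nonclassical monocytes. In bone, the ITAM adaptors Fcer1g and Tyrobp are also known as co-stimulators of osteoclast formation.

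The bases that encode these motifs are shown because they divide the members into activating and inhibitory. Sequences and positions came from GENCODE vM21 on GRCm38, the build of the counts (mm10). In the Fcer1g transcript the ITAM is encoded by codons 65 to 79 of 86, in coding exons on the minus strand at chr1:171229889-171230072, a span that also holds an intron. In Fcgr2b the ITIM is encoded by codons 317 to 322 of 340, in a coding exon on the minus strand at chr1:170961071-170961088. Capitals mark the tyrosine codons.
Fcer1g ITAM: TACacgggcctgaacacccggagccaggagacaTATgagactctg
Fcgr2b ITIM: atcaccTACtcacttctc
Among the coding sequences of the 5 members, the ITAM pattern was found only in Fcer1g. The loose ITIM pattern was also found 3 times in Fcgr1 and 1 time each in Fcgr4 and Fcer1g, and those matches are letters only.

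Fcgr2b (ENSMUSG00000026656, chr1:170958617-170976547, minus strand), Fcgr4 (ENSMUSG00000059089, chr1:171018920-171029761, plus strand), Fcgr3 (ENSMUSG00000059498, chr1:171051174-171064935, minus strand) and Fcer1g (ENSMUSG00000058715, chr1:171229572-171234365, minus strand) lie within 275749 bases of chromosome 1. No other coding gene lies between Fcgr2b and Fcgr4 or between Fcgr4 and Fcgr3, while 7 lie between Fcgr3 and Fcer1g. Fcgr1 (ENSMUSG00000015947, chr3:96282909-96293969, minus strand) lies alone on chromosome 3. Fcgr2b and Fcgr3 are close copies in part of their coding sequence, where 491 of 509 aligned bases were identical (96.5%). The other pairs of receptors had 70.0% to 75.9% in their best aligned stretches, which were of unlike length. Pairs with Fcgr1 aligned over only 68 to 119 bases, and Fcgr4 aligned over 450 with Fcgr2b and 586 with Fcgr3. The counts come from the 3' ends of transcripts, and of all windows of 98 bases, the read length, in the last 500 bases of the members' transcripts, 0 occurred in another gene. Reads of Fcgr2b and Fcgr3 were therefore separable by exact match in these windows. Fcgr2b overlaps the antisense gene Gm38204 on the other strand. On their own strands, Fcgr3 overlaps the microRNA gene Mir6546 and Fcgr4 the small nuclear RNA gene Gm26110.

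The promoters of the 4 receptors are shown because all 4 genes had higher levels in OTM over all cells, and the motifs searched differed between the activating receptors and Fcgr2b. They are RefSeq sequences on GRCm38.p6, from 250 bases before to 50 bases after the start, given 5′ to 3′ along the gene at chr3:96293920-96294219 (minus strand), chr1:171059354-171059653 (minus strand), chr1:171018676-171018975 (plus strand) and chr1:170976022-170976321 (minus strand). Capitals mark matches to GAGGAA, the core letters of PU.1 sites, to TTCNNNGAA, the letters of gamma-activated (STAT) sites, and to GAAA, any 2 bases and GAAA again, the letters of interferon-stimulated response elements, each on either strand.
Fcgr1: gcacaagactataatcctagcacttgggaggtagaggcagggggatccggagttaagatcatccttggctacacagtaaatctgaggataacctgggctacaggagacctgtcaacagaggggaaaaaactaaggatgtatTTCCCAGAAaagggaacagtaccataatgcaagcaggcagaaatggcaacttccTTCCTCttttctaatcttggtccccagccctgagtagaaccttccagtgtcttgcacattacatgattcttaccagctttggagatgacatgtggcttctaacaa
Fcgr3: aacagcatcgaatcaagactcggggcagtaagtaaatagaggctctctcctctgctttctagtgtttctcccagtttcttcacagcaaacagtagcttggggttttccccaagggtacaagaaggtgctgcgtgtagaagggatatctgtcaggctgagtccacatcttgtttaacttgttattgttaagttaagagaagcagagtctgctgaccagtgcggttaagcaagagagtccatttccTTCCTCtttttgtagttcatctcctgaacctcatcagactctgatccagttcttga
Fcgr4: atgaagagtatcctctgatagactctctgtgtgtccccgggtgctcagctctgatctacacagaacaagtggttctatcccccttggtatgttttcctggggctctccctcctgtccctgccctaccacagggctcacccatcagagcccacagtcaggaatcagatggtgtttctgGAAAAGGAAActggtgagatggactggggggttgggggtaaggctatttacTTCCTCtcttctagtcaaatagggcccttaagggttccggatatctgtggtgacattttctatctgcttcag
Fcgr2b: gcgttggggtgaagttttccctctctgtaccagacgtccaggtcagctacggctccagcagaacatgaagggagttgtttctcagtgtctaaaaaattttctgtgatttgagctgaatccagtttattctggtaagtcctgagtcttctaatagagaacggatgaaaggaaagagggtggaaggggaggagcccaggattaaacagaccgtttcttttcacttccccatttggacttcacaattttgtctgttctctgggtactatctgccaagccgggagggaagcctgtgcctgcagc
GAGGAA was found in each of the 3 activating receptors, on the opposite strand as TTCCTC, against 28.3% of 32851 promoters, and neither in Fcgr2b nor in Fcer1g. TTCNNNGAA was found among the members only in Fcgr1 (8.30% of all promoters) and the pair of GAAA words only in Fcgr4 (3.44%). A second RefSeq start of Fcgr3 gave the same match.

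The sort is labelled as macrophages, but the cells were of several kinds. After cells with under 200 genes or over 5% mitochondrial counts were left out, 2835 cells of control and 2052 of OTM remained, holding 14493851 and 16472699 UMIs. A unique molecular identifier (UMI) tags 1 captured RNA molecule, and levels are UMI counts scaled to the total of the cells summed, as counts per 1e6 (CPM). The OTM cells were deeper, with a median of 6861.5 UMIs against 3998, and 6 barcodes occurred in both libraries. Clusters made without the 5 members, and named from marker lists, put 43.0% of control and 48.5% of OTM cells in neutrophil-like groups, 48.7% and 44.2% in monocyte- and macrophage-like groups, and 6.77% and 6.48% in groups with leading monocyte genes and high neutrophil transcripts. The neutrophil marker S100a8 made up between 34218 and 211364 CPM of the OTM neutrophil-like groups, and Adgre1, which encodes F4/80, was between 1.62 and 11.6 CPM in the neutrophil-like groups of both libraries, against 31.7 to 168 CPM in the monocyte- and macrophage-like groups.

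Over all cells, the 4 receptor genes had higher levels in OTM and the shared chain did not follow them. Fcgr1, the high-affinity receptor, was at 98.4 CPM in control and 129 CPM in OTM, a ratio of 1.31 (1.23 to 1.40). Fcgr3 was at 204 and 348 CPM, a ratio of 1.71 (1.63 to 1.78). Fcgr4 was the lowest in control, at 36.9 CPM, and was at 70.8 CPM in OTM, a ratio of 1.92 (1.73 to 2.13). The inhibitory Fcgr2b was at 44.6 and 67.4 CPM, a ratio of 1.51 (1.37 to 1.67). Fcer1g was far above its receptors, at 2653 and 2702.1 CPM, a ratio of 1.02 (1.01 to 1.03) that became 0.991 with totals that left out hemoglobin, ribosomal protein and mitochondrial genes, S100a8 and S100a9. The receptors' ratios stayed above 1 under every scaling tried. Of the 5 members, 3 were at least 1.5-fold higher in OTM (Fcgr2b, Fcgr3 and Fcgr4) and 0 were at least 1.5-fold lower, where 4.17% of the 8073 genes with at least 100 UMIs were higher and 16% lower by that rule. Fcgr2b lay at the edge of this rule. Its ratio was 1.47 without the abundant genes, 1.46 as a mean over cells and 1.49 without called doublets, while Fcgr1 passed 1.5-fold with TMM scaling (1.54) and with a stricter cell filter (1.71). In numbers, 337 genes were higher and 1289 lower, and with TMM scaling 757 and 611. The median log2 ratio over all genes tested was -0.18, and TMM scaling moved every log2 ratio by 0.23.

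Levels within groups and sizes of groups were also exchanged between the libraries. The size of a group here is its share of the library's UMIs, not of its cells. With each group at its control level but with the group sizes of OTM, the level over all cells would have been 0.908 times the control level for Fcgr1, 0.970 for Fcgr2b, 1.01 for Fcgr3 and 1.05 for Fcgr4. With the group sizes of control and the levels of OTM, the ratios were 1.41, 1.59, 1.72 and 1.88 in the same order. The UMIs of the members came from different cells. Monocyte- and macrophage-like groups gave 89.7% of the Fcgr1 UMIs in control and 89.4% in OTM, 67.7% and 73.9% of those of Fcgr2b, and 61.5% and 63.9% of those of Fcgr3. They gave 31.0% of the Fcgr4 UMIs in control and 48.1% in OTM, and neutrophil-like groups gave 39.8% and 28.8%.

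Fcgr1 was a gene of the monocyte- and macrophage-like groups. In control it was highest in the interferon-state monocyte-like cells, at 376 CPM (345 to 410), clear of all other groups. The next 6 groups, nonclassical monocyte-like, C1q macrophage-like, MHC class II-high, cycling monocyte-like, classical monocyte-like and a mixed group led by Clec4n, lay between 206 and 115 CPM, and the intervals of neighbours overlapped throughout. In OTM the interferon-state (405 CPM), MHC class II-high (381 CPM) and C1q macrophage-like cells (375 CPM, from 118 UMIs) did not differ beyond counting error, and the classical monocyte-like cells followed at 224 CPM. In the Ltf, Mmp8 and stefin groups of neutrophil-like cells Fcgr1 was between 1.44 and 5.38 CPM in either library, from 5 UMIs or fewer per group. The plot of levels by group shows this gap.

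**Figure D1:**
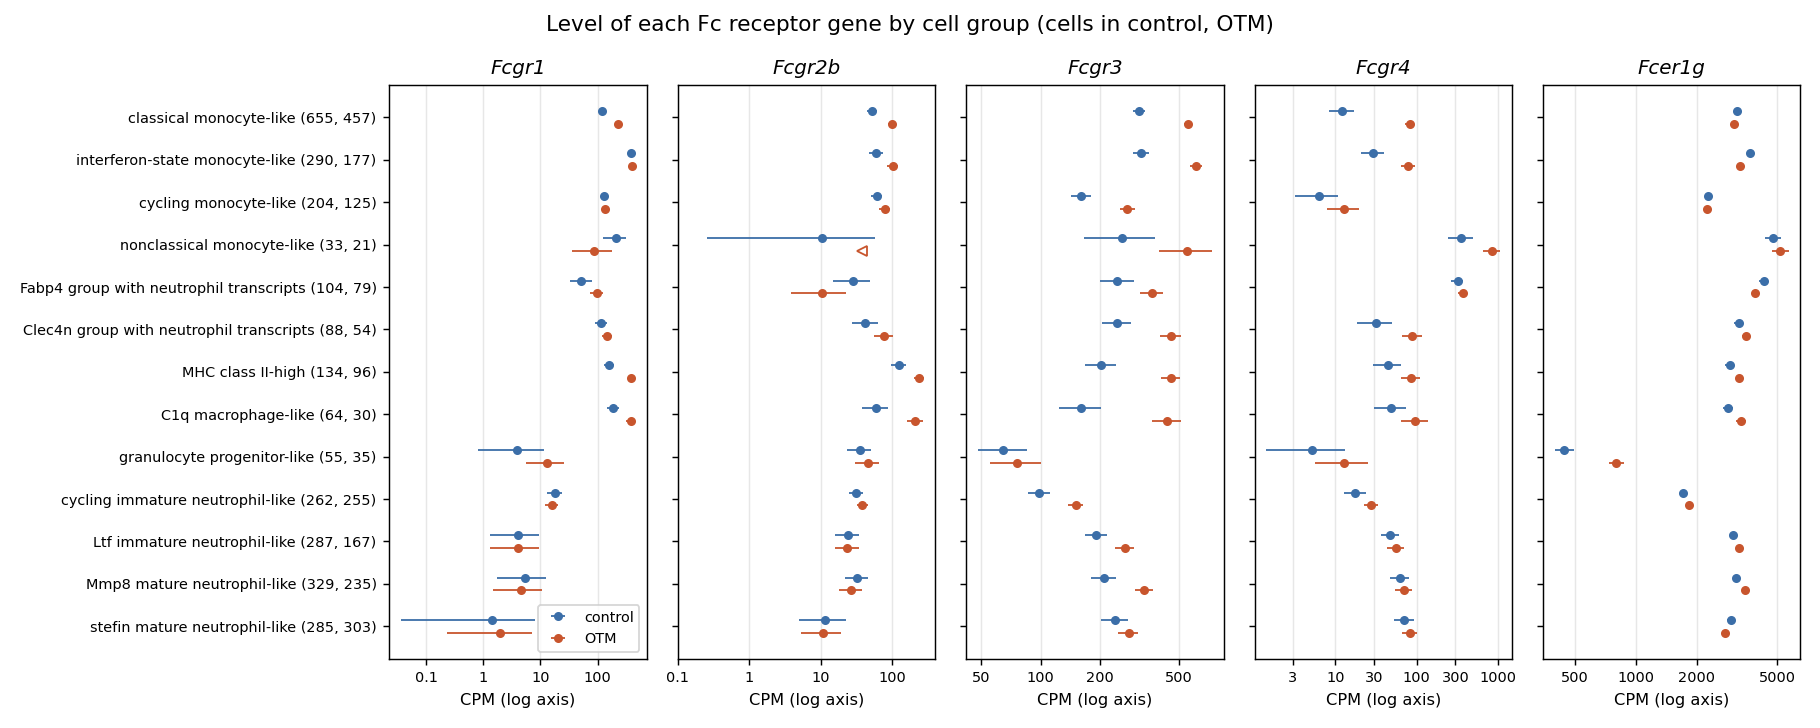
Level of each member (CPM, log axes that differ between panels) in each cell group with at least 20 cells in both libraries. Points are the level from summed UMIs, lines are exact Poisson 95% intervals, and the open triangle is the level that 3 UMIs would give where 0 were counted. Fcgr1 lies between 87.3 and 405 CPM in the monocyte- and macrophage-like groups and at 18.0 CPM or less in the neutrophil-like groups, while Fcgr3 spans a narrow range over nearly all groups.

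Fcgr2b had its highest level in the MHC class II-high cells, at 122 CPM (74 UMIs) in control, clear of the next group, and 238 CPM (154 UMIs) in OTM, where the C1q macrophage-like cells at 207 CPM (65 UMIs) did not differ from them beyond counting error. The other monocyte-like groups lay between 52.2 and 60.3 CPM in control and between 78.2 and 100.2 CPM in OTM. Few or no Fcgr2b UMIs were counted in the nonclassical monocyte-like cells, with 1 UMI in 33 control cells and 0 UMIs in 21 OTM cells, an exact interval of 0 to 46 CPM. Among neutrophil-like cells it was highest in the granulocyte progenitor-like cells, at 35.0 and 45.1 CPM, and lowest in the stefin group, at 11.5 and 10.7 CPM. In the order of levels, none of the neutrophil-like groups was clear of the next group by its interval, in either library.

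Fcgr3 was the most evenly spread receptor. In control, the interferon-state (322 CPM) and classical monocyte-like cells (314 CPM) were the highest, and the following 9 groups stepped down to 159 CPM with no neighbour clear of the next. In OTM the same groups led, at 612 and 554 CPM. The Mmp8 and stefin groups of mature neutrophil-like cells were at 209 and 237 CPM in control and at 333 and 279 CPM in OTM. Only the cycling immature neutrophil-like cells (98.5 and 150.4 CPM) and the granulocyte progenitor-like cells (64.7 and 75.7 CPM) stood clearly lower in both libraries.

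Fcgr4 had its highest levels outside the classical monocyte-like cells. The nonclassical monocyte-like cells, which patrol vessels and are marked by Ace and Treml4, held it at 350 CPM (34 UMIs in 33 cells) in control and 848 CPM (68 UMIs in 21 cells) in OTM. A mixed group led by Fabp4 and other nonclassical genes was at 319 and 369 CPM, and this group also had S100a8 at 103949 and 115720 CPM and 14 doublets called by Scrublet among its 79 OTM cells. In control the other groups were at 70.7 CPM or less, with the stefin and Mmp8 groups of mature neutrophil-like cells (70.7 and 62.4 CPM) above the classical monocyte-like cells (12.1 CPM). In OTM the classical monocyte-like cells were at 82.1 CPM, which did not differ beyond counting error from the stefin group at 82.5 CPM.

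Fcer1g was highest in the nonclassical monocyte-like cells, at 4781 CPM in control and 5175 CPM in OTM, and lay between 2262.6 and 3666 CPM in the other monocyte-, macrophage- and mature neutrophil-like groups. It was lower in dividing neutrophil precursors, at 1716 and 1837 CPM, and in granulocyte progenitor-like cells, at 445 and 805 CPM. The last of these were close to the B cell-like cells, which should lack the gene and held it at 433 CPM (24 cells) and 711 CPM (7 cells), from which they did not differ beyond counting error.

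The comparison of libraries within a cell group asks whether the receptors differ in like cells. In the classical monocyte-like cells (655 in control, 457 in OTM), the Ly6c2- and Ccr2-expressing cells that enter inflamed tissue, all 4 receptors were higher in OTM. Fcgr1 was at 117 CPM (319 UMIs) in control and 224 CPM (781 UMIs) in OTM, a ratio of 1.91 (1.68 to 2.18). Fcgr3 was at 314 CPM (855 UMIs) and 554 CPM (1932 UMIs), a ratio of 1.76 (1.63 to 1.91). Fcgr2b was at 52.2 CPM (142 UMIs) and 97.0 CPM (338 UMIs), a ratio of 1.86 (1.52 to 2.28). Fcgr4 was at 12.1 CPM (33 UMIs) and 82.1 CPM (286 UMIs), a ratio of 6.76 (4.71 to 10.0), above those of the other members. Its control level could not be told from that of the control B cell-like cells, which should lack the gene and held it at 10.3 CPM (1 UMI, 0.261 to 57.5), so the size of this ratio is uncertain. Fcer1g was at 3166 and 3050.2 CPM, a ratio of 0.964 (0.936 to 0.991) that was 1.03 with TMM scaling. Of the 5 members 4 were at least 1.5-fold higher, where 8.41% of 4175 genes were higher and 13.6% lower. The Fcgr1 ratio was 1.32, below 1.5, at clustering resolution 0.3.

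Neutrophil transcripts were higher in the OTM cells of this group. The 9 mature neutrophil markers summed to 1154 CPM in control and 2658 CPM in OTM, 8 of the 9 were higher in OTM, none was at 0, and S100a8 was at 3082 and 13567 CPM. If all of this S100a8 came with neutrophil RNA, at the ratio of Fcgr4 to S100a8 in the Ltf, Mmp8 and stefin groups of the same library, it would carry 0.840 CPM of Fcgr4 in control and 4.78 CPM in OTM. A calculation added after the data were seen took these away from the levels, with the totals left as they were. The ratio was then 6.85 for Fcgr4, 1.72 for Fcgr3, 1.84 for Fcgr2b and 1.91 for Fcgr1. Without the 19 called doublets among the OTM cells it was 6.91 for Fcgr4, and with cells of 3000 to 12000 UMIs only, in both libraries, 7.30. In the control library Scrublet called 0 doublets, so the caller gave nothing there. The OTM cells with an Fcgr4 UMI had S100a8 at 12096 CPM and those without at 14530.3 CPM, while Retnlg, another neutrophil gene, was at 1878 and 1598 CPM. In control both were higher in the cells with an Fcgr4 UMI, S100a8 at 6292 against 2899.6 CPM and Retnlg at 1686 against 813 CPM. MHC class II markers moved the other way in this group, with the 9 markers of that list at 2805 CPM in control and 427 CPM in OTM, and their part in the result was not tested.

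The Fcgr4 UMIs were not those of a few cells. In OTM, 178 of the 457 classical monocyte-like cells had at least 1, of which 111 had 1, 40 had 2 and 27 had 3 or more, up to 5 in a cell. In control, 31 of 655 cells had at least 1, and 1 of them had 3. The nonclassical genes Ace and Treml4 were at 0 and 14.5 CPM in the OTM cells with an Fcgr4 UMI, and at 1.43 and 9.98 CPM in those without. Ly6c2 was at 1288 CPM in the OTM cells with an Fcgr4 UMI and at 1681 CPM in those without, so both sets held it.

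In the interferon-state monocyte-like cells (290 and 177), Fcgr1 was already high in control and had a ratio of 1.08 (0.951 to 1.22). Fcgr3 (322 and 612 CPM) had a ratio of 1.90 (1.69 to 2.14), Fcgr2b (59.0 and 100.2 CPM) of 1.70 (1.28 to 2.27) and Fcgr4 (29.1 and 78.3 CPM) of 2.69 (1.85 to 3.98). Of the 5 members 3 were at least 1.5-fold higher, where 8.21% of 2594 genes were. The Fcgr4 value depended on how the group was drawn: with each library clustered alone it was 0.608, the opposite direction. Fcer1g had a ratio of 0.892 (0.856 to 0.929). The 9 mature neutrophil markers summed to 2269.8 CPM in control and 1947 CPM in OTM in these cells, 3 of the 9 were higher in OTM, Stfa2 was at 0 in control, and S100a8 was at 6145 and 5618.6 CPM. The 9 MHC class II-high markers summed to 8720.4 and 2462 CPM, and their part in the ratios was not tested.

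The cycling monocyte-like cells (204 and 125) differed mainly in Fcgr3, at 160.1 and 275 CPM, a ratio of 1.72 (1.49 to 1.99). Fcgr1 had a ratio of 1.03 (0.854 to 1.23) and Fcgr2b of 1.30 (1.00 to 1.68). Fcgr4 was near the floor, with 12 and 22 UMIs. Of the 4 members with at least 100 UMIs only Fcgr3 was past 1.5-fold, where 6.98% of 3525 genes were higher by that rule. In these cells S100a8 was at 7038 and 17544 CPM, and the 9 mature neutrophil markers summed to 1484 and 2078 CPM, with 7 of the 9 higher in OTM and Stfa2 at 0 in control. The 9 MHC class II-high markers summed to 390.4 and 996 CPM (Ciita at 0 in both) and the 7 C1q macrophage markers to 34.8 and 137 CPM. The part of these in the ratios was not tested.

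The cells with the most Fcgr2b also had all receptors higher in OTM. In the MHC class II-high cells (134 and 96), which carry the antigen-presenting genes Cd74 and H2-Aa, Fcgr1 was at 157 and 381 CPM, a ratio of 2.43 (1.91 to 3.12). Fcgr3 was at 201 and 455 CPM, a ratio of 2.26 (1.83 to 2.82), and Fcgr2b at 122 and 238 CPM, a ratio of 1.95 (1.47 to 2.60). Fcgr4 was at 44.5 and 84.9 CPM from 27 and 55 UMIs, a ratio of 1.91 (1.18 to 3.14). Of the 4 members with at least 100 UMIs 3 were past 1.5-fold, where 15.5% of 1354 genes were. With each library clustered alone the ratio was 1.33 for Fcgr1, 1.75 for Fcgr3, 1.47 for Fcgr2b and 5.09 for Fcgr4. The 9 MHC class II-high markers summed to 67930.2 CPM in control and 35012 CPM in OTM, so the cells of this group were not alike in the genes that name it. S100a8 was at 5167 and 11768 CPM, the 9 mature neutrophil markers summed to 1750.5 and 3384 CPM (8 of 9 higher in OTM, Stfa2 at 0 in control) and the 6 immature neutrophil markers to 1906 and 4085 CPM (4 of 6 higher, Cebpe at 0 in OTM). The part of these in the ratios was not tested.

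In the C1q macrophage-like cells (64 and 30), named for their complement genes, Fcgr2b had the largest ratio, from 57.9 CPM (24 UMIs) to 207 CPM (65 UMIs), or 3.57 (2.21 to 5.97). Fcgr3 (159 and 436 CPM) had a ratio of 2.74 (2.03 to 3.73), Fcgr1 (186 and 375 CPM) of 2.02 (1.5 to 2.73) and Fcgr4 (48.3 and 95.5 CPM, 20 and 30 UMIs) of 1.98 (1.09 to 3.68). Of the 3 members with at least 100 UMIs, Fcgr1 and Fcgr3 were past 1.5-fold, where 14.3% of 939 genes were. These cells held much neutrophil RNA. The 6 immature neutrophil markers summed to 9226 and 31998 CPM (4 of 6 higher in OTM), against 4321 and 3500 CPM for the 7 C1q macrophage markers (2 of 7 higher). All 9 mature neutrophil markers were higher in OTM (4524 and 14157 CPM summed) and none was at 0. There were 4 called doublets among the 30 OTM cells, and S100a8 was at 24372 and 75050.4 CPM. With the Fcgr UMIs that this S100a8 would carry taken away, the ratio was 3.60 for Fcgr2b, 2.38 for Fcgr3, 2.02 for Fcgr1 and 1.66 for Fcgr4. Fcer1g, at a ratio of 1.15 (1.06 to 1.26), was at 0.828 in that calculation. The neutrophil UMIs were left in the totals, which weighs more on OTM, where S100a8 was higher. No direction is therefore read from the Fcer1g value, and the sizes of the 4 receptor ratios are uncertain for the same reason. The group is small, and neither resolution 0.3 nor clustering each library alone gave a ratio for it.

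**Figure D2:**
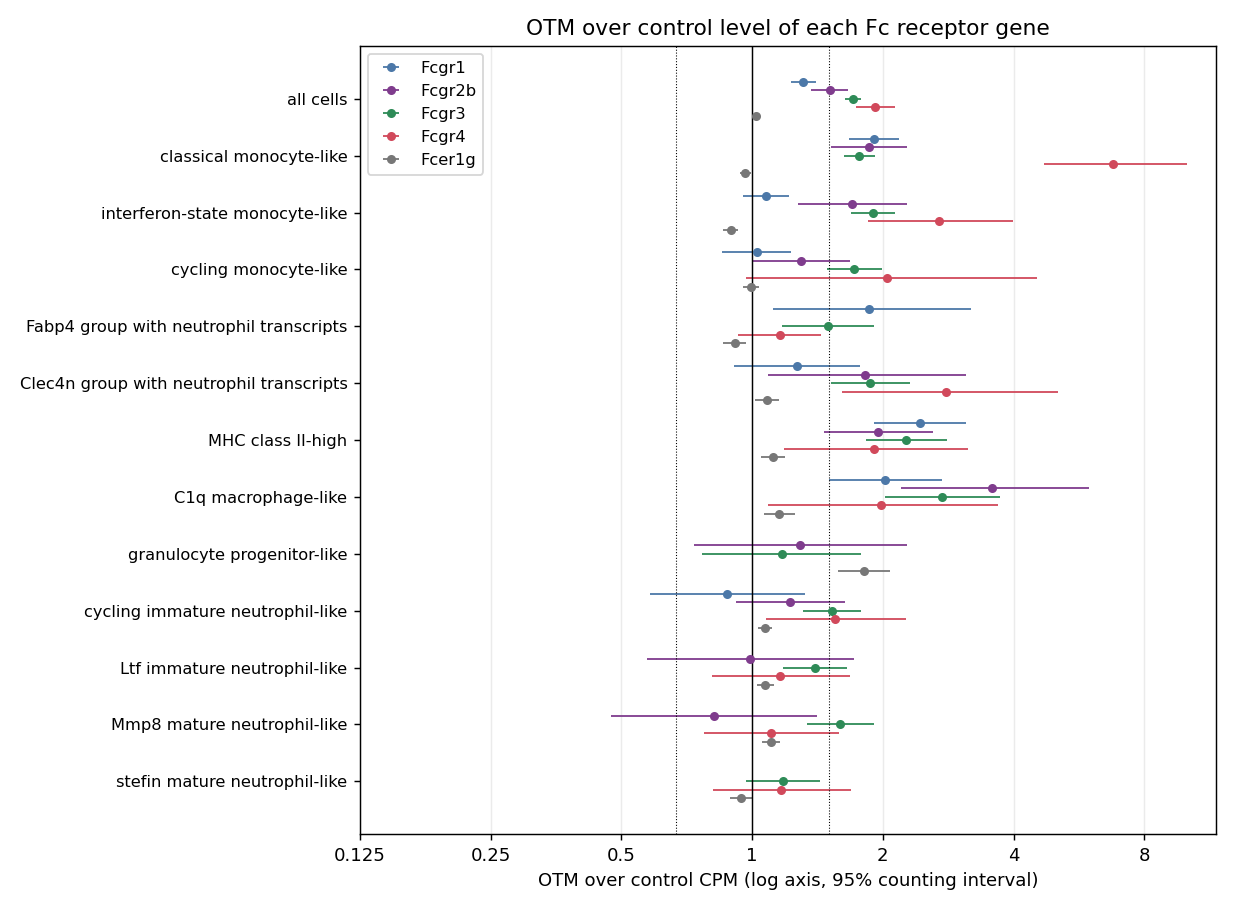
Ratio of the OTM to the control level of each member (log axis, exact conditional 95% intervals for counting error) over all cells and in each group with at least 30 cells in both libraries; a member with under 20 UMIs in a group is left out. The solid line marks equal levels and the dotted lines a 1.5-fold difference. The 4 receptors lie to the right of Fcer1g in the classical monocyte-like, MHC class II-high and C1q macrophage-like groups, and Fcgr4 in the classical monocyte-like cells has the largest ratio plotted, 6.76, over a control level that could not be told from background.

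Among the neutrophil-like groups, Fcgr3 had ratios of 1.53 (1.31 to 1.78) in the cycling immature group, 1.40 (1.18 to 1.66) in the Ltf group, 1.59 (1.34 to 1.91) in the Mmp8 group and 1.18 (0.968 to 1.43) in the stefin group. Under the stricter cell filter, which kept 60 of the 235 OTM cells of the Mmp8 group, its ratio there was 1.12. Fcgr4 had a ratio of 1.55 (1.08 to 2.27) in the cycling immature group, from 44 and 99 UMIs, which was 1.26 without called doublets. Its intervals included 1 in the Ltf (1.16), Mmp8 (1.11) and stefin groups (1.17). Fcgr2b was at 0.991 (0.572 to 1.72), 0.817 (0.473 to 1.41) and 0.924 (0.339 to 2.65) in the same groups, so no difference in it was detectable at this depth. In the granulocyte progenitor-like cells (55 and 35), Fcer1g had a ratio of 1.81 (1.57 to 2.08), the highest of its ratios among the groups compared, and it was the only member there with at least 100 UMIs. S100a8 was at 14313.8 and 34218 CPM in these cells, and its part in the ratio was not tested. The Fcer1g levels did not differ beyond counting error from those of the B cell-like cells, which should lack the gene. There the ratio was 1.64 (0.997 to 2.67), from 42 and 31 UMIs. In OTM, 1 progenitor-like cell held 86 of the 500 Fcer1g UMIs, so no difference in progenitors is read from this ratio.

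All 4 receptors were also counted against Fcer1g, a ratio within the cells that no scaling of the libraries alters. The sum includes Fcgr2b, which signals through its own tail. Fcgr2b gave 11.6% of these receptor UMIs over all cells in control and 10.95% in OTM. Over all cells there were 14.5 (14.1 to 14.9) UMIs of Fcgr1, Fcgr2b, Fcgr3 and Fcgr4 together per 100 Fcer1g UMIs in control and 22.8 (22.3 to 23.3) in OTM. The values were 15.7 and 31.4 in the classical monocyte-like cells, in the interferon-state cells 21.5 and 36.6, in the MHC class II-high cells 18.0 and 35.6 and in the C1q macrophage-like cells 15.7 and 33.6. The OTM value was 2.00 (1.87 to 2.15), 1.70 (1.56 to 1.86), 1.98 (1.70 to 2.29) and 2.14 (1.75 to 2.62) times that of control in these groups. The neutrophil-like groups past the progenitors lay between 8.82 and 10.9 in control and between 10.8 and 13.5 in OTM, with ratios of 1.22 to 1.31. The granulocyte progenitor-like cells went the other way, at 24.4 and 18.2 with a ratio of 0.745 (0.531 to 1.05), where the Fcer1g level did not differ from that of B cell-like cells beyond counting error.

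**Figure D3:**
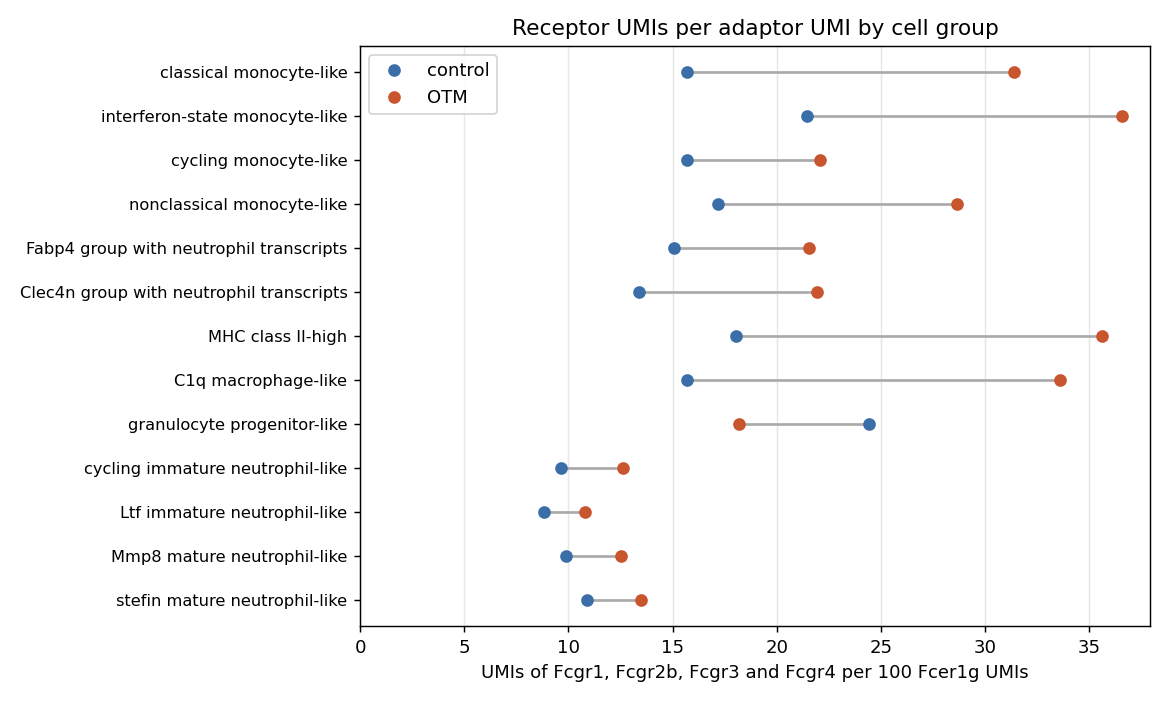
UMIs of the 4 receptor genes per 100 Fcer1g UMIs (horizontal axis) in each cell group, with a point for each library and a grey line that joins both. The OTM point lies to the right in 12 of the 13 groups and to the left in the granulocyte progenitor-like cells.

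The ratio of activating to inhibitory UMIs, (Fcgr1 + Fcgr3 + Fcgr4) to Fcgr2b, differed far more between cell groups than between libraries. Over all cells it was 7.60 (7.0 to 8.26) in control, from 4917 and 647 UMIs, and 8.13 (7.64 to 8.66) in OTM, from 9025 and 1110 UMIs. The OTM ratio was 1.07 (0.964 to 1.19) times the control ratio. The classical monocyte-like cells had 8.50 and 8.87, or 1.04 (0.842 to 1.29) times. The interferon-state cells (12.3 and 10.9), the cycling monocyte-like cells (4.92 and 5.39) and the MHC class II-high cells (3.30 and 3.88) gave 0.885 (0.653 to 1.19), 1.10 (0.827 to 1.45) and 1.18 (0.845 to 1.63). In the C1q macrophage-like cells the ratio was 6.79 in control and 4.38 in OTM, or 0.646 (0.372 to 1.09) times. All of these intervals included 1, and they do not show that the libraries were alike.

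Between groups, the granulocyte progenitor-like cells had the lowest ratio, 2.11 (1.31 to 3.47) in control and 2.25 (1.42 to 3.65) in OTM. The MHC class II-high cells came next, with overlapping intervals (2.53 to 4.34 and 3.24 to 4.66), so this order is not resolved. Fcgr3 gave 87.7% and 74.6% of the activating UMIs of the progenitor-like cells. Its level there, 64.7 and 75.7 CPM, did not differ beyond counting error from that of B cell-like cells (51.6 and 91.8 CPM). The B cell-like cells should lack Fcgr3, so the progenitor-like ratio is uncertain. In OTM the ratio was 5.08 in the cycling immature and 13.8 in the Ltf group of neutrophil-like cells. It was 15.4 in the Mmp8 and 34.0 (18.8 to 68.7) in the stefin group. In control the Ltf (10.2) and Mmp8 (8.57) groups did not differ beyond counting error, between 4.29 in the cycling immature and 26.8 in the stefin group. The nonclassical monocyte-like cells had 79 activating UMIs and 1 Fcgr2b UMI in control, and 119 and 0 in OTM. Of the 12 groups compared between libraries, the interval of the OTM over control ratio lay above 1 in the Mmp8 group, at 1.80 (1.02 to 3.18), and in the mixed Fabp4 group, at 3.70 (1.27 to 12.1). The Mmp8 value rested on 30 and 29 Fcgr2b UMIs, and its interval lay barely above 1 among 12 looked at. The Fabp4 value rested on 12 and 6 Fcgr2b UMIs and was 1.15 to 1.33 with resolutions 0.3 and 1.0, with clusters left whole and with the members left in the clustering.

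**Figure D4:**
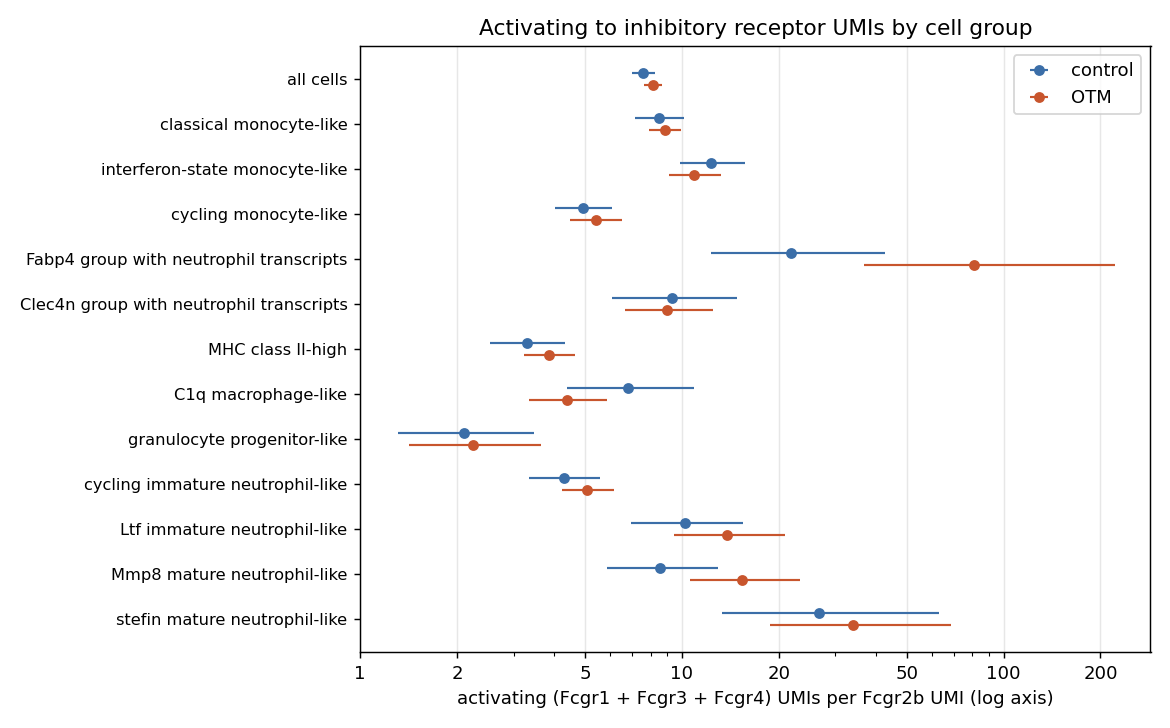
Activating receptor UMIs (Fcgr1, Fcgr3 and Fcgr4 summed) per Fcgr2b UMI (log axis) in each cell group and library, with exact 95% intervals for counting error; the nonclassical monocyte-like cells are left out because OTM had 0 Fcgr2b UMIs. The ratio runs from 2.11 in granulocyte progenitor-like cells to 80.8 in the Fabp4 group of OTM. The points of control and OTM lie at 8.5 and 8.9 in the classical monocyte-like cells and at 6.8 and 4.4 in the C1q macrophage-like cells.

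The make-up of the activating UMIs also differed by cell. In the classical monocyte-like cells Fcgr3 gave 70.8% of them in control and 64.4% in OTM, Fcgr1 gave 26.4% and 26.0%, and Fcgr4 gave 2.73% and 9.54%. In the interferon-state cells Fcgr1 gave 51.7% in control and 37.0% in OTM. In the stefin group Fcgr3 gave 76.6% and 76.7%, Fcgr4 22.9% and 22.7% and Fcgr1 0.467% and 0.535%. Fcgr4 gave the largest part in the nonclassical monocyte-like cells, with 43.0% and 57.1%, and in the Fabp4 group, with 51.9% and 44.5%.

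Shares of cells with a UMI were compared after each cell was thinned at random to 1500 UMIs, a depth that every kept cell reached, because the OTM cells were deeper. Over all cells Fcgr1 was found in 10.7% (9.57 to 11.9) of control and 14.3% (12.8 to 15.9) of OTM cells, Fcgr3 in 26.5% and 38.3%, Fcgr4 in 5.96% and 10.1%, Fcgr2b in 5.47% and 8.92% and Fcer1g in 94.9% and 96.1%. Without thinning the shares were 22.1% and 37.4% for Fcgr1, 54.6% and 78% for Fcgr3, 12.8% and 31.9% for Fcgr4, 17.9% and 28.5% for Fcgr2b and 99.2% and 99.5% for Fcer1g. In the B cell-like cells, which should lack Fcgr1, Fcgr3, Fcgr4 and Fcer1g, the thinned shares were 0 of 24, 2 of 24, 1 of 24 and 13 of 24 control cells and 0 of 7, 0 of 7, 0 of 7 and 4 of 7 OTM cells, at median depths of 3468.5 and 4701 UMIs before thinning. Before thinning, 1 of the 7 OTM cells held 4 Fcgr1 UMIs, which put the gene at 91.8 CPM (25 to 235) there. With 0 of 24, a share of up to 14.25% is allowed, so these cells give only a coarse background.

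In the classical monocyte-like cells the thinned share was 15.7% (13 to 18.7) in control and 28.7% (24.6 to 33.1) in OTM for Fcgr1, 35.1% (31.5 to 38.9) and 51.6% (47.0 to 56.3) for Fcgr3, and 7.48% (5.58 to 9.77) and 14.7% (11.6 to 18.2) for Fcgr2b. For Fcgr4 it was 1.37% (0.630 to 2.59) in control, at or below the 1 of 24 control B cell-like cells, so the control level could not be told from free RNA, and 11.8% (9.0 to 15.1) in OTM. Before thinning, these shares were 30.8% and 72.2% for Fcgr1, 65.0% and 93.9% for Fcgr3, 17.7% and 38.95% for Fcgr2b and 4.73% and 38.95% for Fcgr4. In the interferon-state cells Fcgr3 was found in 32.4% and 59.9%, and Fcgr1 in 33.1% (27.7 to 38.8) and 37.9% (30.7 to 45.4), which did not differ beyond counting error. In the MHC class II-high cells the Fcgr4 share was 6.72% in control and 4.17% in OTM, against the order of its CPM. Thinned to 1000 UMIs it was 2.99% and 10.4%, with that order, so no order is read from these draws.

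Both kinds of receptor were seen in the same cells. After thinning, a UMI of Fcgr2b together with 1 of an activating receptor was found in 3.51% (2.24 to 5.22) of control and 10.3% (7.66 to 13.4) of OTM classical monocyte-like cells, and 2 or more activating receptors in 6.11% and 21.2%. Among the OTM cells with Fcgr2b, 70.1% (47 of 67) also had an activating receptor, against 68.7% (268 of 390) of those without. In control these shares were 46.9% (23 of 49) and 46.0% (279 of 606). The intervals of cells with Fcgr2b, 57.7 to 80.7 in OTM and 32.5 to 61.7 in control, were wide and held the shares of the cells without it.

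**Figure D5:**
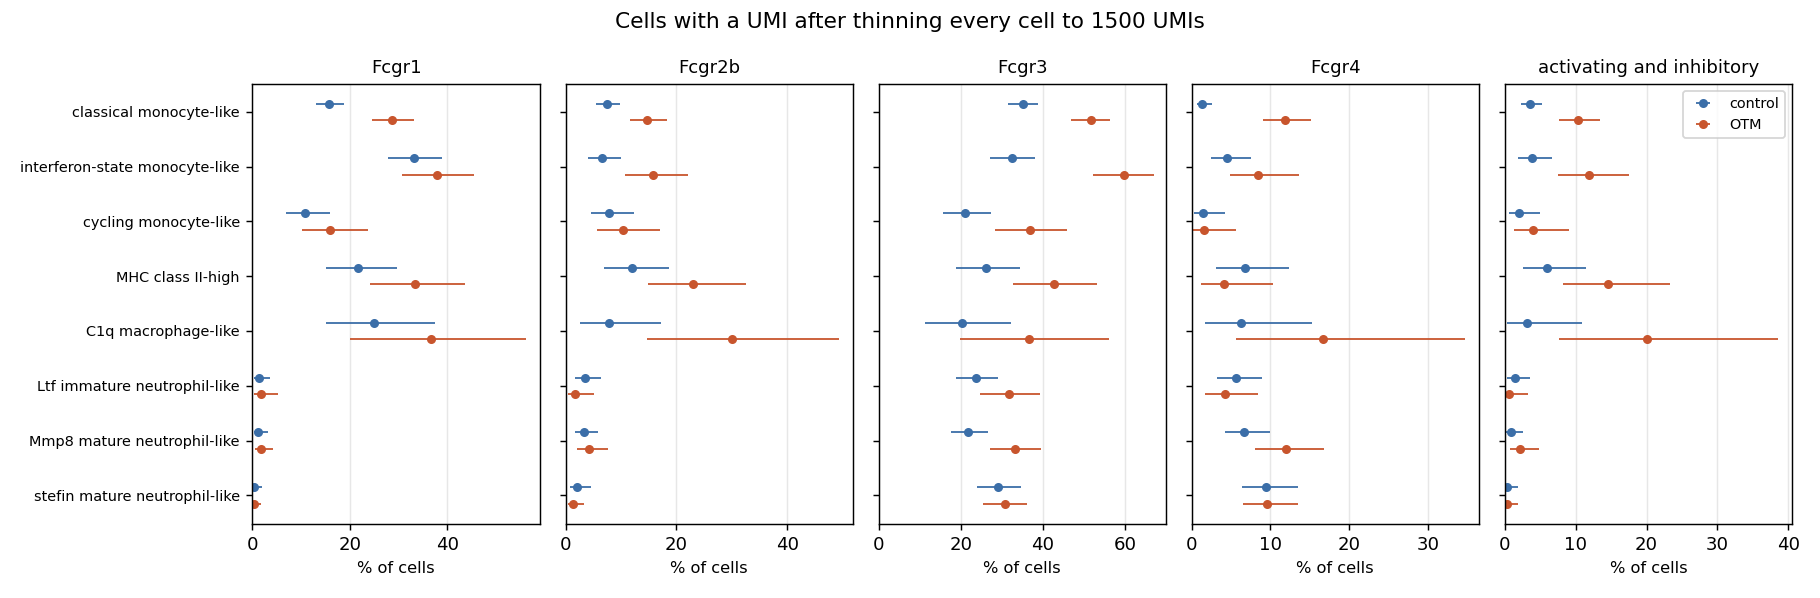
Percent of cells with a UMI of each receptor gene, and with UMIs of both an activating receptor and Fcgr2b, after thinning each cell to 1500 UMIs, in 8 cell groups. Points are shares, lines are exact Clopper-Pearson 95% intervals for counting error. Fcgr1 and Fcgr2b lie below 5% in the 3 neutrophil-like groups in both libraries, and the OTM points of Fcgr3 lie to the right of control in all 8 groups.

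Genes of 6 lists of proteins that act with or beside the receptors were counted by the rule of at least 1.5-fold, and each count is set beside all genes tested, of which 8.41% were higher and 13.6% lower in the classical monocyte-like cells, with a median log2 ratio of -0.07, and 4.17% were higher and 16% lower over all cells. Several listed genes have close copies in the genome (Clec4a1 and Clec4a3, Pira2 and Pirb, Pilrb1 and Pilrb2, Lilr4b and Lilrb4a), and their levels are less certain. Of the ITAM adaptors and receptors that pair with Fcer1g, 9 were tested in the classical monocyte-like cells, 3 were higher and 2 lower, and their median log2 ratio was 0.30. Clec4e, the receptor Mincle for mycobacterial and dead-cell lipids, was at 901 and 1611 CPM, a ratio of 1.79 (1.71 to 1.88). Clec4d (1.56) and Pira2 (2.03) were also higher, and Clec4b1 was the lowest, at 46.0 and 6.89 CPM, a ratio of 0.150 (0.0926 to 0.233). Clec4n, the receptor Dectin-2, was at 62.5 and 31.9 CPM (0.510). Tyrobp, which encodes the other ITAM adaptor DAP12, was at 4250 and 3002 CPM, a ratio of 0.706 (0.688 to 0.725). Over all cells 2 of 10 were higher (Clec4e at 1.67 and Pira2 at 1.63) and 1 lower (Clec4b1 at 0.210), and Tyrobp had a ratio of 0.829.

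Of the kinases and signalling proteins below the activating receptors, 24 were tested in the classical monocyte-like cells, with 1 higher and 6 lower, against 8.41% and 13.6% of all genes tested, and a median log2 ratio of -0.27. Syk, the kinase that binds the phosphorylated ITAM, was at 118 and 65.4 CPM, a ratio of 0.554 (0.466 to 0.659). Lat2, an adaptor of Fc receptor signals, was at 66.2 and 24.1 CPM (0.364), and Pik3r1, a subunit of phosphoinositide 3-kinase, at 33.8 and 20.7 CPM (0.611). Bcl10, a part of the complex that links ITAM signals to NF-κB, was at 154 and 257 CPM, a ratio of 1.68 (1.49 to 1.89). The oxidase subunits Ncf4 (1.46) and Ncf1 (1.41) came next and did not reach 1.5-fold. Over all cells 1 of 25 was higher (Ncf4, 1.53) and 5 were lower, close to the 4.17% and 16% of all genes, with Lat2 (0.392), Pik3cd (0.608) and Syk (0.620) the lowest, and Bcl10 (1.42) and Fgr (1.30) after Ncf4 the highest.

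Of the phosphatases and adaptors of inhibitory signalling, 7 were tested in the classical monocyte-like cells, 0 were higher and 4 lower, where 13.6% of all genes tested were lower, with a median log2 ratio of -0.61. Inpp5d, which encodes the phosphatase SHIP-1 below Fcgr2b, was at 48.9 and 25.8 CPM, a ratio of 0.528 (0.400 to 0.695). Ptprc, which encodes CD45, had a ratio of 0.502 (0.458 to 0.551) and Ptprj, another receptor phosphatase, of 0.596. Ptprc and Ptprj also act in activating signals, so the counts of this list are not a measure of inhibitory signalling alone. Ptpn6, which encodes SHP-1, was at 147 and 111 CPM, a ratio of 0.755 (0.655 to 0.871). Csk was the other gene past the rule (0.654, a name added after its value was seen), and Dok3 (0.888) and Cbl (0.701) were not past it. Over all cells 0 of 11 were higher and 2 lower, Inpp5d at 0.531 and Ptprc at 0.616, while Ptpn11 was at 0.673, Dok3 at 1.08, Dok2 at 0.974 and Ptpn6 at 0.898.

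Other receptors, on a list drawn up for ITIMs, went both ways. The motif was not searched for in these genes, and some, such as Cd200r1 and mouse Cd33, may not carry it. In the classical monocyte-like cells 12 were tested, 4 were higher and 2 lower, with a median log2 ratio of 0.08. Cd33, a sialic acid-binding receptor, was at 38.2 and 181 CPM, a ratio of 4.74 (3.85 to 5.89). Cd300lf had a ratio of 2.50 (2.05 to 3.06) and Siglece of 1.89 (1.37 to 2.65). Cd300a (0.576), Clec12a (0.634) and Ceacam1 (0.684) were the lowest. Over all cells 4 of 17 were higher, led by Cd33 (1.78), Cd200r1 (1.70) and Pirb (1.60), and 1 lower, Cd72 (0.248), followed by Pecam1 (0.689) and Cd300a (0.696).

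Only 2 of the 14 other Fc receptors and antibody-handling proteins had at least 100 UMIs. Fcgrt, which encodes the neonatal Fc receptor that recycles immunoglobulin G, was at 40.4 and 18.4 CPM in the classical monocyte-like cells, a ratio of 0.454 (0.328 to 0.624), and its partner B2m had a ratio of 0.892. Over all cells these were 0.552 and 0.931. Of the complement receptors, 4 were tested in the classical monocyte-like cells. C5ar1, the receptor for the anaphylatoxin C5a, was at 314 and 669 CPM, a ratio of 2.13 (1.97 to 2.31), while Cr1l (1.18), Itgam (1.15) and Itgb2 (1.09), of which the last 2 form complement receptor 3, were not past 1.5-fold in either direction. Their median log2 ratio was 0.22. Over all cells 2 of 6 were higher, C5ar1 at 2.36 and C3ar1 at 1.59, and 0 lower, with Itgb2 at 1.40, C5ar2 at 0.729, Itgam at 0.996 and Cr1l at 1.18.

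The genes whose pattern over 25 pseudobulks (a cell group in a library with at least 30 cells) was most like each member were named by Pearson correlation of log2(CPM + 10) among 6477 genes. The points share libraries and cell groups, and the values are a description. Ms4a6b (0.970) and Ifi204 (0.968) were among the genes most like Fcgr1. For Fcgr2b the values were lower, with Sdc4 (0.856) and Rab7b (0.826) among them. Slfn2 (0.920), Bcl10 (0.913) and Sod2 (0.905) were most like Fcgr3, and Bcl2a1b (0.910), which has close copies in the genome, Dusp16 (0.863) and Pbxip1 (0.787) were most like Fcgr4. Tyrobp (0.928), the other ITAM adaptor, Fgr (0.920), a Src family kinase, and Cd53 (0.911) were most like Fcer1g. Among the members, Fcer1g was nearer to Fcgr3 (0.769) and Fcgr4 (0.677) than to Fcgr1 (0.405) and was at -0.0034 with Fcgr2b, and Fcgr2b and Fcgr4 were at -0.24.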

How the data were processed

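Per the study's methods and the submitters' processing notes, the authors made the deposited UMI counts with Cell Ranger 3.0.0 against mm10. The deposited tables hold raw counts for 27998 genes, with 2863 control and 2058 OTM barcodes and 14620877 and 16500733 UMIs. The annotation release is not given in the sources used here. Cells with at least 200 genes and at most 5% mitochondrial counts were kept. The stated filter can also be read as 200 genes per 1000 UMIs, which kept 2444 and 1255 cells and served as an alternative. The libraries were integrated and clustered with Seurat 5.3.0 (20 dimensions, resolution 0.6, 1997 features, without the members), and clusters led by genes of more than 1 cell type were split at resolution 0.3. The splits and the group names were chosen after the data were seen. Doublets were called with Scrublet (scanpy 1.11.5).

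UMIs were summed per group and library. Levels carry exact Poisson intervals, ratios exact conditional binomial intervals and shares Clopper-Pearson intervals, all at 95%. Ratios were formed for groups with at least 30 cells in each library, and fold rules used genes with at least 100 UMIs. No test between groups was made, since each group is 1 library. On simulated counts in which 200 genes differed 2-fold between all cells of the libraries, among 6537 genes, 102 of 102 raised and 98 of 98 lowered genes had the right direction. The simulated counts held counting error alone, so they tell nothing of differences between animals or library preparations. TMM factors came from edgeR 4.0.16. For shares, cells were thinned to 1500 UMIs. Gene positions, transcripts and coding motifs came from GENCODE vM21, and promoters from RefSeq.

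The members, gene lists and marker lists were chosen with earlier results of these data known. Named beside the members are, for each list, up to 3 genes with the highest and 3 with the lowest ratios, Tyrobp, Syk, Inpp5d and Ptpn6, and for each member the 3 most alike genes, of which some are not reported here. Of the listed genes 3 (Pira6, Pira7 and Lilrb4) were not matched. The number of animals per library is not given in the sources used here, and intervals cover counting error only. Alternatives changed the cell filter, clustering, doublets, scaling, summing, depth and thresholds.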

Additional observations from a re-analysis of the deposited data

How the results depend on the processing

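No paired analysis was possible because each group is 1 library, and for the same reason no replicate could be left out. Over all cells, TMM scaling gave ratios of OTM to control of 1.535 for Fcgr1, 1.765 for Fcgr2b, 1.995 for Fcgr3, 2.242 for Fcgr4 and 1.191 for Fcer1g. The stricter cell filter gave 1.71, 1.827, 1.991 and 2.323 for the 4 receptors. It also left out more neutrophil-like than monocyte-like cells, above all in OTM, so its values over all cells include a change in cell make-up. Fcer1g was at 0.9913 without the abundant genes and 0.993 as a mean over cells. In the classical monocyte-like cells Fcgr1 was at 1.318 at resolution 0.3 and Fcgr3 at 1.98 with each library clustered alone. Fcer1g was at 1.028 there with TMM scaling and at 0.9324 without the abundant genes. It was at 0.906 with neutrophil RNA subtracted from the levels but not from the totals. The Fcgr4 ratio in these cells was between 5.63 and 8.21 over its 12 alternatives. Directions turned for Fcgr4 in the interferon-state cells with each library clustered alone (0.6081) and for Fcgr2b in the Fabp4 group at resolutions 0.3 (1.177) and 1.0 (1.339), with the members left in the clustering (1.36) and with clusters left whole (1.214). The cause was not tested. The activating to inhibitory ratio over all cells was 8.309 in control and 8.797 in OTM with the stricter filter, and 10 in OTM classical monocyte-like cells with each library clustered alone. With Fcgr3 alone over Fcgr2b it was 4.569 in control and 5.164 in OTM over all cells and 6.021 and 5.716 in the classical monocyte-like cells, and with Fcgr1 and Fcgr4 only it was 3.031 and 2.967, and 2.479 and 3.157. Leaving clusters whole, subtracting neutrophil RNA and limiting depth to 3000 to 12000 UMIs were chosen after seeing the data.

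Over all cells 337 genes were higher and 1289 lower by 1.5-fold. These counts were 757 and 611 with TMM scaling, 103 and 319 by 2-fold and 590 and 2361 with at least 20 UMIs, and 850 were lower with at least 200 UMIs. In the classical monocyte-like cells 351 and 569 became 127 and 185 by 2-fold and 842 and 1524 with at least 20 UMIs, and 278 were lower with at least 200 UMIs. The smallest groups limit what can be read, with 30 OTM C1q macrophage-like and 21 nonclassical monocyte-like cells.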
